A study of Mus musculus with 10 samples.

Results

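The genes described here make the lysosome of the cell: 23 hydrolases, 11 lysosomal membrane proteins, 8 subunits and accessory proteins of the proton pump, 3 soluble cofactors, 2 mannose 6-phosphate receptors and 2 transcription factors, 49 genes in all of 46152 counted. They were listed by symbol and matched to the NCBI gene numbers of the count files through the RefSeq gene table, which found all 49. Keeping those with any count left 48 of the 44086 genes with a nonzero total, since Neu1 had 0 counts in every library. RNA was taken from microglia of the brain of C57BL/6J mice, aged 8 to 12 weeks in the study's methods, and sequenced after SMART-Seq v4 amplification. The vehicle group (n = 5, 2 male and 3 female) was gavaged for 8 days with 0.1% Tween 80 and 0.5% hydroxymethyl propyl-cellulose. The GW2580 group (n = 5, 2 male and 3 female) was given the same vehicle holding GW2580, an inhibitor of the CSF1R kinase, at 80 mg/kg/d. The question was whether 8 days of CSF1R inhibition altered the transcriptome of microglia in healthy mice. Each library came from 1 mouse, and selection by CD11b also takes up any other cell that carries this integrin. In such bulk RNA, fewer cells of a type and less RNA per cell cannot be told apart.

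Lysosomes digest what microglia engulf. Hydrolases made in the endoplasmic reticulum are tagged with mannose 6-phosphate, carried to the lysosome by 2 receptors, and work at the acid pH set by the vacuolar proton pump, whose V1 sector splits ATP and whose V0 sector conducts protons through the membrane. TFEB and its relative TFE3 bind CACGTG-type sites near the starts of many lysosomal genes and raise their transcription together. In microglia, the membrane glycoprotein CD68 and the cysteine protease legumain are abundant, and inherited loss of many of these hydrolases gives storage disease of the brain.

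Letters of the kind these factors bind were searched for in the promoters, here 250 bases before to 50 after each start listed for RefSeq genes, build GRCm38.p6. A gene could have more than 1 such start, and not every start is the outer end of its gene. The letters CACGTG, which read the same on both strands, were present in 13 of the 44 members that had a promoter in the table (29.5%). They were in 7.15% of all 32851 promoters and in 8.09% of the 27025 genes with one. Of the 13, 7 were hydrolases, 3 membrane proteins, 2 pump subunits and 1 a mannose 6-phosphate receptor. All 13 also matched the longer TCACGTG on 1 strand or the other, which overlaps CACGTG. It was in 3.77% of all promoters and in 4.29% of the genes with one. Asah1, Atp6v1b2, Atp6v1h, M6pr and Plbd2 were not matched in the promoter table. A match is a description of the letters and not a measured binding site. To show the letters in their setting, 1 window of 30 bases is given for each of 8 of the 13 members that hold them, 5′ to 3′ on the strand of the gene and in lower case, with CACGTG in capitals.
Gaa (chr11:119267811-119267840, plus strand): tttctgtgcgatCACGTGtttgactctgac
Lgmn (chr12:102439124-102439153, minus strand): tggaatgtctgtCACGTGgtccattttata
Naglu (chr11:101070009-101070038, plus strand): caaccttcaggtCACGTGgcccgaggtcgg
Arsa (chr15:89477423-89477452, minus strand): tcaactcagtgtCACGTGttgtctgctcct
Mcoln1 (chr8:3500436-3500465, plus strand): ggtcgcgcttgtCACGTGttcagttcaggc
Cln3 (chr7:126583340-126583369, minus strand): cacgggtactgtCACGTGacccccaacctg
Igf2r (chr17:12769696-12769725, minus strand): gccgactcaggtCACGTGacgctccgggga
Atp6v1a (chr16:44139373-44139402, minus strand): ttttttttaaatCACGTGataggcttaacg
Lamp1 had the most copies among the members, 4 within the 80 bases before its start, and these bases are shown whole for that reason.
Lamp1 (chr8:13159081-13159160, plus strand): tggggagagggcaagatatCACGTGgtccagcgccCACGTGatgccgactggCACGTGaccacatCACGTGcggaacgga
In the 8 windows above, the first letter of CACGTG lay between 7 bases (Igf2r) and 140 bases (Gaa) before the listed start. For Cln3, Lgmn and Atp6v1a this start lies inside the gene, downstream of its outer end.

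Fragments assigned to genes ranged from 12550418 to 20854218 per library with vehicle and from 13228819 to 26079343 with GW2580. Vehicle 5 had the lowest summed level of 10 microglial markers (13593 CPM, counts per 1000000 assigned fragments after TMM scaling; the other vehicle libraries had 23536 to 31945). It also had 3176 CPM of oligodendrocyte markers, against 148 to 267 in vehicle 1, 3 and 4 and 14934 in vehicle 2. GW2580 3 had the highest microglial sum (60455 CPM, against 18239 to 35104 in the other GW2580 libraries). The markers of monocytes and granulocytes were highest in vehicle 1 (12930 CPM) and otherwise ranged from 161 to 3614 CPM. All 10 microglial markers were detected, and their sum exceeded that of each other marker list in every library. Both libraries moved many of the members' values, and the main results that rest on them are given with and without them.

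Not all members could be measured. A filter of more than 1 CPM in at least 3 libraries, the one the study used, kept 46 of the 49. Neu1, the sialidase that starts the breakdown of sialylated glycans, had 0 counts, which allows at most 0.115 to 0.239 CPM by library (3 counts of the assigned fragments, counting error only). Laptm5, a lysosomal membrane protein of hematopoietic cells, had 5 counts over the 10 libraries, and Mfsd8, a lysosomal transporter, had 43. These 3 genes share a property of the annotation. The gene models place Neu1 on 4 sequences and Laptm5 and Mfsd8 on 2, because GRCm38.p6 adds alternate copies of some regions, and fragments that aligned to more than 1 place were not counted. Of 1867 genes placed on more than 1 sequence, 38.2% had 0 counts and 27.6% passed the filter, whereas of 44285 genes on 1 sequence 3.05% had 0 counts and 63.0% passed. Ctns, Atp6v1e1, Asah1 and Igf2r were also placed on 2 sequences. Of these, Ctns and Atp6v1e1 had 165 and 266 counts in all, so their levels here, and those of the 3 genes above, cannot be taken as levels of the transcripts in the cells. Without these 7 genes, 42 members remained. Counting ignored strand and left out fragments shared by overlapping genes, which touches Sgsh (22.2% of its exon bases lie in exons of Card14 or Slc26a11), Asah1 (16.2%), Idua (14.7%), Cln3 (11.0%) and Glb1 (10.1%).

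Scaled by exon length (RPKM, the TMM-scaled CPM per kilobase of exon), the members spanned a wide range with vehicle. The protease Lgmn was the most abundant hydrolase at 1262 ± 350 RPKM with vehicle and 1498 ± 754 with GW2580 (mean ± SD, n = 5 here and below), followed by Hexa, a subunit of β-hexosaminidase, at 343 ± 87.2 and 456 ± 229 RPKM. The scavenger-receptor-like glycoprotein Cd68 led the membrane proteins at 1419 ± 652 and 970 ± 475 RPKM, before Lamp1, a coat glycoprotein of the lysosome, at 459 ± 26.6 and 585 ± 308. Among the cofactors, Grn (progranulin) stood at 923 ± 187 and 1339 ± 781 RPKM and Psap, the precursor of the saposins, at 697 ± 687 and 803 ± 613. The highest pump genes were Atp6v0c, which forms the proton-conducting ring, at 354 ± 39.6 and 216 ± 110 RPKM, and the accessory protein Atp6ap1 at 220 ± 50.6 and 236 ± 132. The SDs of Lgmn, Cd68 and Grn overlapped, which does not settle their order within libraries, and this order was not tested. The other hydrolases on 1 sequence lay between 3.56 RPKM (Galc) and 112 (Man2b1) with vehicle. Both transcription factors were modest, with Tfe3 at 22.4 ± 2.30 and Tfeb at 11.8 ± 3.94 RPKM with vehicle. Summed over all members, fragments on these genes made up 1.28% to 1.72% of the assigned fragments with vehicle and 1.32% to 2.52% with GW2580.

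**Figure D1:**
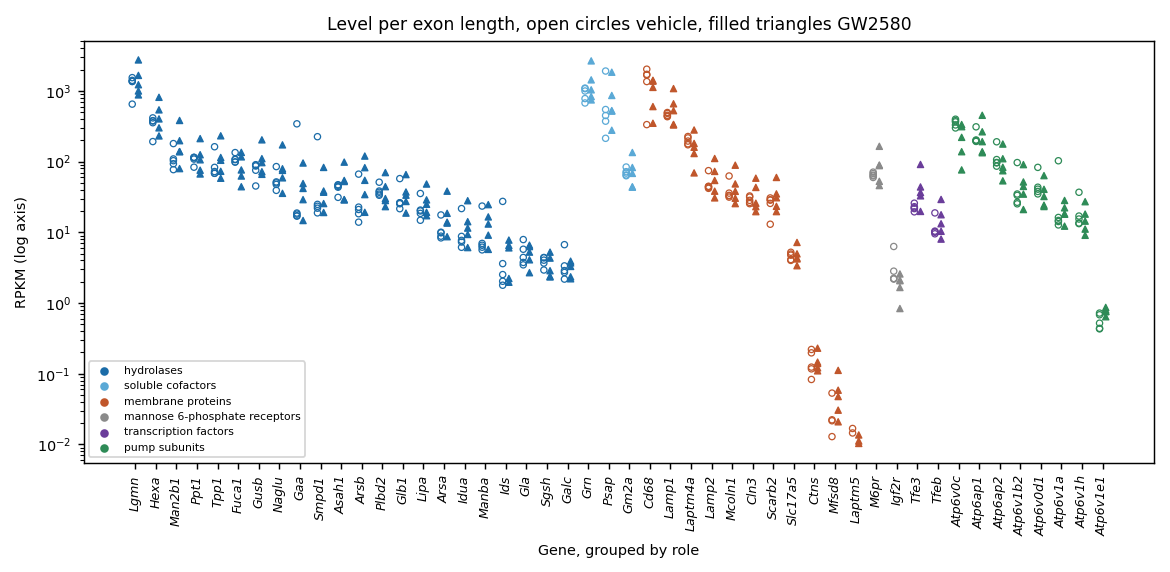
Level of each member in RPKM (log axis) in each library, grouped and coloured by role, with open circles for the 5 vehicle libraries and filled triangles for the 5 GW2580 libraries. Lgmn, Cd68 and Grn are the highest, and Ctns, Mfsd8, Laptm5 and Atp6v1e1, which the annotation places on 2 sequences, lie below 1 RPKM; libraries at 0 and Neu1, with 0 counts, cannot be drawn on this axis.

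With GW2580 against vehicle, 1 of the 46 members tested had an unadjusted p under 0.05 and was higher, Tfe3, and 0 were lower (edgeR's quasi-likelihood F test, two-sided). Among all 28419 genes tested, 6.61% were higher and 8.12% lower at this p. By the study's rule, a fold change over 2 with an unadjusted p under 0.05, 0 members were called in either direction, while 4.01% of all genes were called higher and 6.70% lower. After Benjamini-Hochberg adjustment over all genes, 0 genes passed 0.05 (smallest adjusted p = 0.280), although DESeq2 left 177, of which 0 were members. Of the 46 members, 31 had a log2 fold change above 0 and 15 below, where 51.6% of all genes were below, with a median of 0.21 and a range from -0.84 (Gaa) to 1.12 (Arsb), and the median over all genes was -0.03. The 5 GW2580 libraries lay wholly above or wholly below the 5 vehicle libraries for 0 members. This complete separation was found for 2.04% (above) and 0.985% (below) of all genes. The medians by role were 0.28 for 22 hydrolases, 0.24 for 9 membrane proteins, 0.21 for the 3 cofactors and -0.24 for the 8 pump genes. These medians turned with single libraries. Without GW2580 3 they were -0.07 for hydrolases, -0.13 for membrane proteins and -0.53 for the pump, and without vehicle 5 they were 0.57, 0.19 and 0.18.

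**Figure D2:**
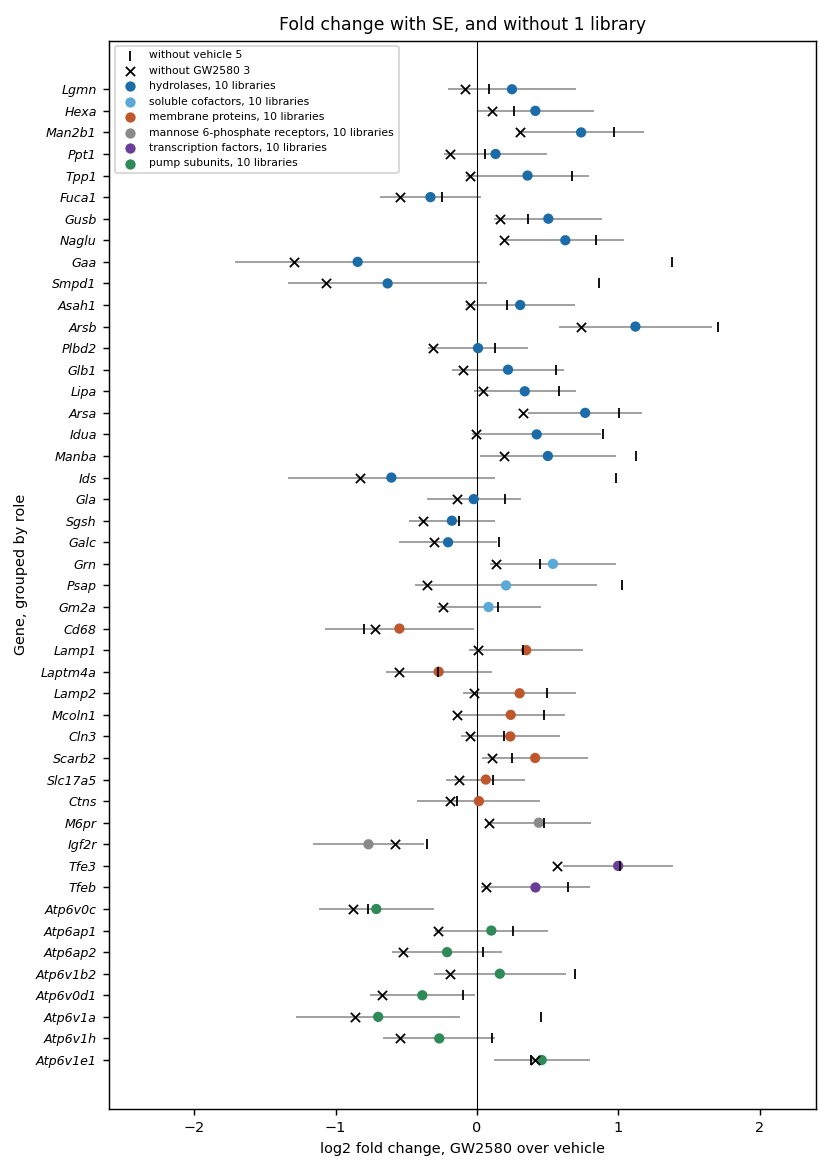
The log2 fold change of GW2580 over vehicle for the 46 members tested, as coloured points with the SE of the fit, with the estimate without vehicle 5 (vertical ticks) and without GW2580 3 (crosses). Most estimates lie within 1 of 0 with wide errors, the crosses lie to the left of most points, and the ticks of Gaa, Smpd1, Ids and Atp6v1a, among others, lie on the other side of 0 from their points.

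Of the transcription factors, Tfe3 passed an unadjusted p of 0.05 and Tfeb did not. Tfe3, on chromosome X from 7762530 to 7775202, stood at 83.4, 75.1, 99.6, 85.7 and 88.8 CPM in vehicle 1 to 5 and at 169, 127, 351, 141 and 76.2 CPM in GW2580 1 to 5. Thus 4 of the 5 GW2580 values exceeded the highest vehicle value, and GW2580 5 lay within the vehicle range. Tfe3 rose 2.00-fold (log2 fold change 1.00, SE 0.39, p = 0.0218, adjusted p = 0.281 by edgeR's quasi-likelihood test; two-sided exact permutation p = 0.0397, n = 5 each). The 5 vehicle values span little, and the SD was 8.89 CPM with vehicle and 105 with GW2580. Without GW2580 3 the log2 fold change was 0.57, without vehicle 5 and GW2580 3 it was 0.58, without vehicle 2 and 5 it was 0.93, with the microglial markers in the model 0.71 and with replicate number as a block 0.82. In these 5 of the 22 alternatives the unadjusted p of Tfe3 was above 0.05. Tfeb, the better known of the pair, was at 55.0, 58.0, 58.5, 60.0 and 109 CPM with vehicle and 76.3, 102, 168, 59.7 and 46.3 with GW2580. Its groups overlapped, with vehicle 5 above 4 of the 5 GW2580 libraries (log2 fold change 0.41, SE 0.38, adjusted p = 0.621, edgeR).

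**Figure D3:**
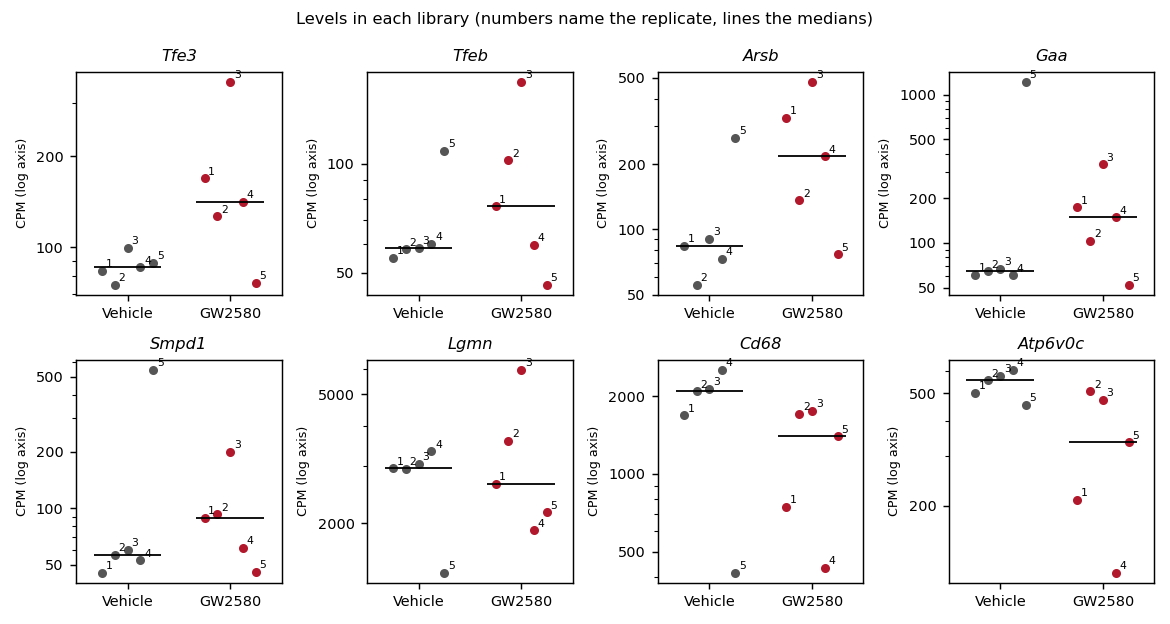
CPM (log axis, ranges differ between panels) of 8 members in each library, with the replicate number beside each point and a line at the median of each group. Tfe3 is above the vehicle range in 4 of 5 GW2580 libraries, vehicle 5 is apart from the other vehicle libraries in Tfeb, Gaa, Smpd1, Arsb, Lgmn and Cd68, and GW2580 3 is the highest GW2580 library for all but Atp6v0c.

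The glycosaminoglycan hydrolases, which take apart heparan and dermatan sulfate, had the highest median of the hydrolase groups, 0.46 over 6 genes, with 4 above 0. Arsb, which removes sulfate from dermatan and chondroitin chains, was at 83.7, 55.5, 90.6, 73.0 and 265 CPM with vehicle and 327, 136, 478, 217 and 76.5 with GW2580. Vehicle 5 overlapped the GW2580 range and GW2580 5 the vehicle range, and 2 of the 5 GW2580 libraries exceeded all vehicle values. For Arsb the log2 fold change was 1.12 (SE 0.54, p = 0.0567, adjusted p = 0.349, edgeR; two-sided exact permutation p = 0.103, n = 5 each). It was past an unadjusted p of 0.05 in 10 of 22 alternatives, among them without vehicle 5 (1.71) and without both vehicle 5 and GW2580 3 (1.33). Naglu, which cuts heparan sulfate, had a log2 fold change of 0.62 (SE 0.42), Gusb (β-glucuronidase) 0.50 (SE 0.38), Idua (α-iduronidase) 0.42 (SE 0.46) and Sgsh -0.18 (SE 0.30). Ids, the sulfatase lost in Hunter syndrome, was at 157 CPM in vehicle 5 and between 10.2 and 20.6 in the other vehicle libraries, while GW2580 libraries held 11.3 to 44.5. Its log2 fold change was -0.61 with all libraries and 0.98 without vehicle 5, the second past an unadjusted p of 0.05.

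Hydrolases of sphingolipids and gangliosides had a median log2 fold change of 0.22 over the 7 tested, 4 of them above 0. Arsa, which removes sulfate from sulfatide, a myelin lipid, stood at 35.0, 29.1, 34.3, 30.8 and 61.4 CPM with vehicle and at 64.8, 47.1, 133, 48.5 and 30.3 with GW2580. Vehicle 5 lay among the GW2580 values, of which 2 were above every vehicle library (log2 fold change 0.76, SE 0.40, adjusted p = 0.384, edgeR). Hexa was at 781, 739, 865, 790 and 400 CPM with vehicle and 837, 1123, 1690, 481 and 626 with GW2580, 2 of them above every vehicle library and 3 within the vehicle range (0.41, SE 0.41). Asah1 (acid ceramidase, 0.31), Glb1 (β-galactosidase, 0.22), Gla (α-galactosidase, -0.02) and Galc (galactosylceramidase, -0.20) lay closer to 0, with SEs of 0.33 to 0.39. Smpd1, the acid sphingomyelinase, was at 542 CPM in vehicle 5, 45.4 to 59.9 in the other vehicle libraries and 46.0 to 199 with GW2580. Its log2 fold change was -0.63 with all libraries and 0.87 without vehicle 5, again past an unadjusted p of 0.05 in the second fit alone.

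Of the 4 hydrolases of glycoproteins and glycogen, Gaa, the α-glucosidase lost in Pompe disease, spread the most. It was at 61.0, 64.3, 66.7, 60.3 and 1217 CPM with vehicle and at 174, 103, 340, 149 and 52.3 with GW2580. Vehicle 5 thus stood far above all other libraries, and of the GW2580 libraries 4 were above vehicle 1 to 4 and 1 below them. The log2 fold change was -0.84 (SE 0.87, adjusted p = 0.658, edgeR) with all libraries, 1.38 (SE 0.45) without vehicle 5 and 0.93 (SE 0.34) without vehicle 5 and GW2580 3, and both of the latter were past an unadjusted p of 0.05. The α-mannosidase Man2b1 had 0.74 (SE 0.45), the β-mannosidase Manba 0.50 (SE 0.48) and the fucosidase Fuca1 -0.33 (SE 0.36), and 0 of these passed the test with all libraries.

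Protease, lipase and thioesterase genes had the narrowest spread of the hydrolase groups, with log2 fold changes from 0.01 (Plbd2) to 0.36 (Tpp1) over 5 genes, all above 0. Lgmn was at 2954, 2945, 3053, 3338 and 1409 CPM with vehicle and 2652, 3593, 5945, 1904 and 2164 with GW2580. Vehicle 5 was the lowest of the 10 libraries and GW2580 3 the highest, and the groups overlapped (log2 fold change 0.25, SE 0.45, adjusted p = 0.818, edgeR). Ppt1, the thioesterase lost in infantile neuronal ceroid lipofuscinosis, had 0.13 (SE 0.36), Lipa, the acid lipase, 0.34 (SE 0.36) and Tpp1, a tripeptidyl peptidase, 0.36 (SE 0.43).

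The soluble cofactors, which present lipids to the hydrolases or are carried with them, overlapped between groups. Grn was at 2349, 1836, 2583, 2534 and 1591 CPM with vehicle and 2442, 3378, 6266, 1758 and 1961 with GW2580, with only GW2580 2 and 3 above every vehicle library (0.54, SE 0.45). Psap was at 1487, 583, 1223, 1017 and 5206 CPM with vehicle and 2351, 1435, 5012, 1414 and 758 with GW2580, so that vehicle 5 and GW2580 3 were the highest of the 10 (0.21, SE 0.64). Its log2 fold change was 1.03 without vehicle 5 and -0.35 without GW2580 3. Gm2a, the activator of ganglioside breakdown, had 0.08 (SE 0.37).

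Of the 9 membrane proteins tested, 7 had a log2 fold change above 0, and 0 passed an unadjusted p of 0.05. Cd68 was at 1688, 2087, 2134, 2524 and 415 CPM with vehicle and 748, 1710, 1760, 434 and 1396 with GW2580. Vehicle 2, 3 and 4 were above all GW2580 libraries, and vehicle 1 was close to GW2580 2 and 3. Vehicle 5 and GW2580 4 and 1 were the lowest (log2 fold change -0.55, SE 0.53, adjusted p = 0.633, edgeR, and -0.97 without vehicle 5 and GW2580 3). Lamp1 was at 1102, 982, 1071, 1008 and 962 CPM with vehicle and 1171, 1466, 2404, 748 and 736 with GW2580. The vehicle values kept close together while the GW2580 values fell on both sides of them, 3 above all and 2 below all (log2 fold change 0.35, SE 0.40, adjusted p = 0.699, edgeR). Scarb2, which carries glucocerebrosidase to the lysosome, had 0.41 (SE 0.37) and Lamp2 0.30 (SE 0.40). Mcoln1 (the calcium channel TRPML1), Cln3 (lost in juvenile neuronal ceroid lipofuscinosis) and Slc17a5 (the sialic acid exporter) had 0.24, 0.24 and 0.06, and Laptm4a had -0.27, with SEs of 0.28 to 0.38. Ctns, the cystine exporter, had 0.01 (SE 0.44) at about 1 CPM.

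The 2 receptors that bring hydrolases to the lysosome differed in sign. M6pr was at 150 to 178 CPM with vehicle and 115 to 414 with GW2580, 3 libraries above and 2 below every vehicle library (log2 fold change 0.44, SE 0.37, adjusted p = 0.583, edgeR). Igf2r was at 22.1, 21.8, 22.1, 28.1 and 62.8 CPM with vehicle and 16.5, 20.6, 8.33, 25.7 and 21.0 with GW2580. Of the GW2580 libraries, 4 lay below every vehicle library, by the most in GW2580 3, the library highest in nearly all other members. Its log2 fold change was -0.77 (SE 0.39, adjusted p = 0.372, edgeR), and -0.16 without vehicle 5 and GW2580 3.

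Among the pump genes, 3 of 8 had a log2 fold change above 0 and 5 below. Atp6v0c was at 502, 556, 578, 605 and 455 CPM with vehicle and 210, 509, 474, 116 and 335 with GW2580. GW2580 1, 4 and 5 lay below every vehicle library and the other two within the vehicle range. The log2 fold change was -0.71 (SE 0.41, p = 0.102, adjusted p = 0.418 by edgeR's quasi-likelihood test; two-sided exact permutation p = 0.0397, n = 5 each). It was past an unadjusted p of 0.05 in 4 of 22 alternatives. Among these was the model with the summed microglial markers as a term (-1.02) and the fit without vehicle 5 and GW2580 3 (-0.93). GW2580 1, 4 and 5, the libraries low in Atp6v0c, also had the highest share of unique fragments that met no annotated exon, 68.0%, 70.8% and 64.7%, against 47.1% to 59.8% in the other 7, and with this share in the model the log2 fold change was -0.54. Atp6v0d1, the collar subunit of V0, had -0.39 (SE 0.37). In the V1 sector, Atp6v1a, the catalytic subunit, was at 451 CPM in vehicle 5 and 55.9 to 71.2 in vehicle 1 to 4, and at 53.7 to 124 with GW2580 (log2 fold change -0.70, SE 0.58, and 0.45 without vehicle 5). Atp6v1b2, its partner in the ATP-splitting head, had 0.16 (SE 0.47; 0.69 without vehicle 5 and -0.19 without GW2580 3) and the regulatory Atp6v1h -0.27 (SE 0.40). Atp6ap1 was at 442, 435, 455, 446 and 699 CPM with vehicle and 432, 595, 1018, 301 and 311 with GW2580, on both sides of the vehicle values (0.10, SE 0.40). Atp6ap2, the prorenin receptor, had -0.21 (SE 0.39). Atp6v1e1, of the V1 stalk and among the genes placed on 2 sequences, was at 1.05 to 1.75 CPM with vehicle and 1.56 to 2.11 with GW2580, 4 of them above the highest vehicle value (log2 fold change 0.46, SE 0.34, p = 0.200, edgeR; two-sided exact permutation p = 0.0397, n = 5 each).

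The roles were also set side by side within libraries, as the mean log2 CPM over the tested genes of each. The pump mean minus the hydrolase mean lay between -0.31 and -0.09 in the 5 vehicle libraries (-0.23 ± 0.08). With GW2580 it was -0.82, -0.34, -0.83, -0.89 and -0.28 (-0.63 ± 0.30, n = 5). GW2580 1, 3 and 4 thus held less pump RNA relative to hydrolase RNA than any vehicle library, GW2580 2 lay just below the vehicle range, and GW2580 5 within it. Vehicle 5, at -0.22, did not stand apart in this difference. The membrane mean minus the hydrolase mean was 0.34 to 0.54 in vehicle 1 to 4 and -0.85 in vehicle 5, and ranged from -0.34 to 0.31 with GW2580. No test is given for these means over chosen genes.

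**Figure D4:**
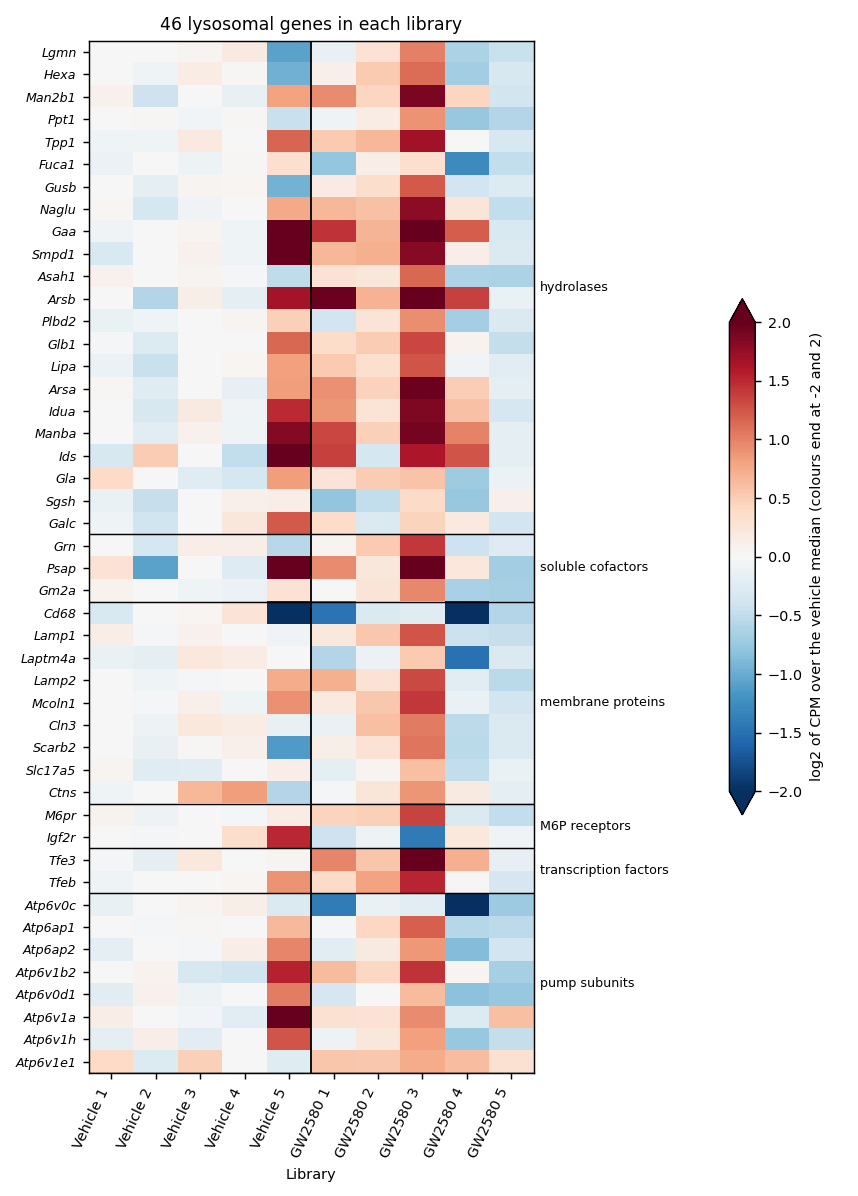
Heat map of log2 CPM over the median of the vehicle libraries for the 46 members tested (rows, grouped by role and ordered by level) in the 10 libraries (columns). Vehicle 1 to 4 are pale in most rows, vehicle 5 is dark in both directions, and GW2580 3 is red in all rows but Cd68, Igf2r and Atp6v0c.

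In vehicle 1 to 4 the members varied little, with a median coefficient of variation of 9.46% over the 46 genes against 26.1% over all genes tested. The latter include genes near 1 CPM, where counting error widens the spread. Genes of like level were not compared, so the gap cannot be read as a trait of the members. Over all 5 vehicle libraries the members' median was 33.5%, and over the 5 GW2580 libraries 50.4%, against 44.8% and 40.9% for all genes. In vehicle 5, 12 of the 46 members were more than 2-fold above every other vehicle library (26.1%) and 2 more than 2-fold below, where all genes had 15.3% and 21.8%. The largest ratios to the mean of vehicle 1 to 4 were 19.3 for Gaa, 11.0 for Ids, 10.1 for Smpd1, 7.10 for Atp6v1a and 4.83 for Psap. The smallest were 0.197 for Cd68, 0.458 for Scarb2 and 0.459 for Lgmn. Vehicle 2 had more astrocyte, oligodendrocyte and neuronal marker RNA than vehicle 5 (2910 against 1109 CPM, 14934 against 3176 CPM and 421 against 127 CPM), and Gaa was at 64.3, Smpd1 at 56.3 and Atp6v1a at 64.7 CPM there, within or next to the range of vehicle 1, 3 and 4. Endothelial and mural markers went the other way, at 61.1 CPM in vehicle 2 and 105 in vehicle 5, the highest of all libraries. The part of other sources in the levels of vehicle 5 was not tested.

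GW2580 3 was the highest GW2580 library for 44 of the 46 members (95.7%, against 27.5% of all genes tested), all 22 hydrolases and all 9 membrane proteins among them, with Atp6v0c and Igf2r the exceptions. It was the highest of all 10 libraries for 32 members (69.6%, against 15.5%). Over the GW2580 libraries, the summed microglial markers moved with the summed members. Such a sum weighs the most abundant genes most, here Lgmn, Grn, Cd68, Psap and Lamp1, and does not stand for each member. Summed over the list, the members reached 14626 to 20195 CPM with vehicle and 17052, 19893, 36548, 11355 and 11991 CPM in GW2580 1 to 5, and the 10 microglial markers 25769, 35104, 60455, 18239 and 22590 CPM in the same libraries. The ratio of the sums was 0.531 to 0.662 over the 5 GW2580 libraries and 0.529 to 0.683 in vehicle 1 to 4. In vehicle 5 it was 1.49, where Psap alone held 5206 of the 20195 CPM. The ratio is free of the TMM factors, on which both sums rest. These factors were 1.23, 0.964, 0.691, 1.61 and 1.10 in GW2580 1 to 5 and 0.856 to 0.975 with vehicle. Before this scaling the members made up 2.09%, 1.91%, 2.52%, 1.81% and 1.32% of the assigned fragments in GW2580 1 to 5. With vehicle they made up 1.28% to 1.72%. GW2580 4, the lowest of the 10 in the scaled sum, was thus above all vehicle libraries before scaling. Of the 10 microglial markers, 8 had a log2 fold change above 0 and 2 below, with a median of 0.45. A model with their sum as a term therefore does not part treatment from marker level. With the log2 of this sum in the model, a term added after seeing the data, the median log2 fold change of the members was 0.01. In that fit 24 of the 46 were above 0, and Cd68 (-0.83) and Atp6v0c were lower at an unadjusted p under 0.05. Genes higher and lower at this p were then 6.17% and 6.11% of all genes.

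Without vehicle 5, 5 members were called higher by the fold and p rule, Arsb, Arsa, Manba, Gaa and Tfe3, and 8 had an unadjusted p under 0.05 and were higher, with Idua, Ids and Smpd1 in addition (all 8 with adjusted p of 0.163 or more, edgeR). In that fit 6.18% of all genes were called higher and 13.0% were higher at the unadjusted p. Without both vehicle 5 and GW2580 3, Arsb was called higher, Arsa, Manba and Gaa were also higher at an unadjusted p under 0.05, and Atp6v0c was lower, where 11.2% of all genes were higher and 7.46% lower. Without GW2580 3 alone, 0 members passed in either direction, where 5.41% of all genes were higher and 6.14% lower at the unadjusted p, and 15 of the 46 were above 0. The sign of the log2 fold change turned for 9 members without vehicle 5 and for 16 without GW2580 3.

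Promoter letters and fold changes were set side by side without a test. The 13 members with CACGTG in the promoter, all of which were tested, had log2 fold changes from -0.84 to 0.76 with a median of 0.22, 7 above 0 (10 without vehicle 5 and 3 without GW2580 3). The 28 tested members with a promoter that lacked these letters had a median of 0.25, 20 above 0 (23 and 11 in the same fits). Lamp1, with 4 copies, was at 0.35.

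The remaining subunits of the pump, 17 genes outside the list, were examined in the same fit. Of the 14 that passed the filter, 3 fell by the fold and p rule and 0 rose (background 6.70% and 4.01% of all genes). Atp6v0e, a small V0 subunit, was at 380, 409, 418, 404 and 162 CPM with vehicle and 61.4, 166, 135, 33.8 and 271 with GW2580. The 4 higher vehicle libraries were above all GW2580 libraries, and vehicle 5 lay among them (log2 fold change -1.41, SE 0.51, p = 0.0152, adjusted p = 0.280, edgeR; two-sided exact permutation p = 0.0238, n = 5 each). This difference was past an unadjusted p of 0.05 in all 22 alternatives. Atp6v1g1, of the stalk of V1, was at 278, 391, 274, 274 and 196 CPM with vehicle and 79.8, 180, 153, 38.7 and 240 with GW2580, 4 of them below every vehicle library (-1.03, SE 0.45, p = 0.0360, edgeR; two-sided exact permutation p = 0.0159, n = 5 each), and it passed an unadjusted p of 0.05 in 14 of 22 alternatives. Atp6v0e2 was at 60.8 CPM in vehicle 2 and 30.9 in vehicle 5, 1.34 to 3.33 in vehicle 1, 3 and 4 and 2.00 to 11.2 with GW2580 (-1.96, SE 0.90, p = 0.0460, edgeR; two-sided exact permutation p = 0.500, n = 5 each). Both high libraries are those with the most glial marker RNA, and without them its log2 fold change was 1.08. It passed an unadjusted p of 0.05 in 7 of 22 alternatives. The part of glial RNA in its levels was not tested.

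Low values gathered among pump genes with short exons. Over the 21 pump genes placed on 1 sequence, listed and other, Spearman's rho between exon length and log2 fold change was 0.58, a description over genes that share libraries and complexes, and it was 0.01 over all 28419 genes and 0.15 over the 42 members on 1 sequence. Of the 10 pump genes with under 2000 bases of exon, a length chosen after the values were seen, 9 were below 0, with a median of -0.75. Of the 11 longer ones, 4 were below 0, with a median of 0.12. Removing the trend of each library with gene length left Atp6v0e at -1.42, Atp6v1g1 at -1.02 and Atp6v0c at -0.64, the first 2 past an unadjusted p of 0.05. The share of fragments on no annotated exon moved with these values too, with GW2580 1 and 4 the lowest of the 10 libraries for Atp6v0e and Atp6v1g1 and the highest for this share. With the share in the model Atp6v0e was at -1.36, still past that p, and Atp6v1g1 at -0.88, no longer past it.

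**Figure D5:**
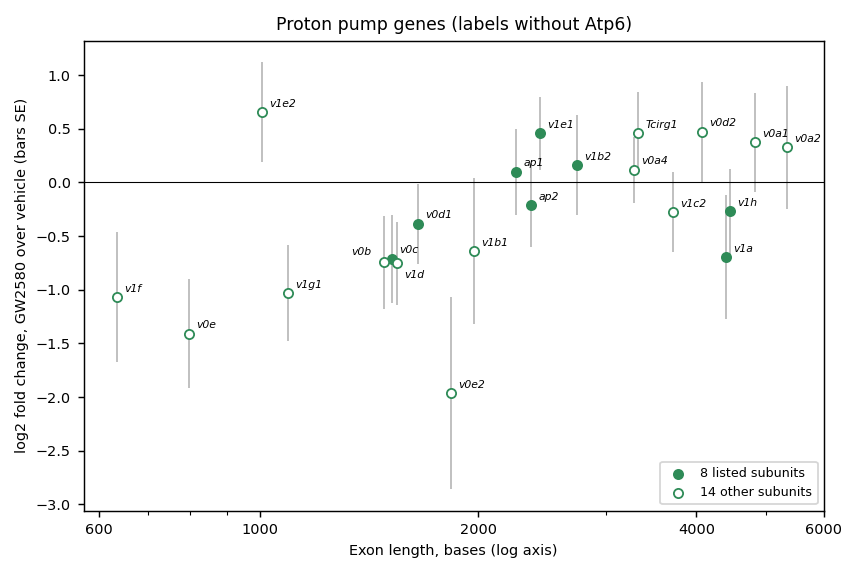
The log2 fold change (points, with the SE of the fit as bars) of the 22 pump genes tested against exon length in bases (log axis), with filled points for the 8 listed genes and open points for the 14 others. The genes under 2000 bases lie below 0 except for Atp6v1e2, and those above this length on both sides of 0.

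A further 21 lysosomal hydrolases and their helpers were all tested, with 1 called higher and 2 lower and a median log2 fold change of 0.15. Of all genes, 4.01% were called higher and 6.70% lower, and 0.985% had all GW2580 libraries below all vehicle libraries. Pla2g15, the lysosomal phospholipase A2, was at 269 to 376 CPM with vehicle and at 646, 561, 1472, 499 and 286 with GW2580. It rose in this test, with all but GW2580 5 above the vehicle range (log2 fold change 1.08, SE 0.43, p = 0.0238, adjusted p = 0.288, edgeR; two-sided exact permutation p = 0.0397, n = 5 each). Without GW2580 3 its log2 fold change was 0.60, not past an unadjusted p of 0.05, which it passed in 15 of 22 alternatives. Acp5, the tartrate-resistant acid phosphatase, was at 6.20 to 9.53 CPM in vehicle 1 to 4, 39.9 in vehicle 5 and 2.72 to 5.27 with GW2580. All GW2580 libraries lay below all vehicle libraries, and Acp5 fell by 1.89 on the log2 scale (SE 0.52, p = 0.00263, adjusted p = 0.280, edgeR; two-sided exact permutation p = 0.00794, n = 5 each, the smallest this design can give). Without vehicle 5 it fell by 0.98, still past an unadjusted p of 0.05, and with the share of fragments on no exon in the model its log2 fold change was -1.25, no longer past it. Ifi30, a thiol reductase which the annotation places on 2 sequences, was lower by the same rule (-1.20, SE 0.50, p = 0.0309, edgeR; two-sided exact permutation p = 0.111, n = 5 each), with 1 of 5 GW2580 libraries below every vehicle library, and it passed an unadjusted p of 0.05 in 16 of 22 alternatives.

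Of 27 other genes of the lysosomal membrane and of nutrient sensing on its surface, 1 was called higher and 1 lower, with a median of -0.06. Over all genes 4.01% were called higher and 6.70% lower. All GW2580 libraries were above all vehicle libraries for 2.04% of all genes and below them for 0.985%. Tfec, a relative of Tfeb and Tfe3 found in macrophages, was at 3.68, 2.87, 2.34, 2.01 and 0.955 CPM with vehicle and 5.44, 4.61, 4.50, 4.88 and 5.42 with GW2580. All GW2580 libraries were above all vehicle libraries at this low level (1.07, SE 0.35, p = 0.00876, adjusted p = 0.280, edgeR; two-sided exact permutation p = 0.00794, n = 5 each), with an unadjusted p under 0.05 in all 22 alternatives. Tmem192, a lysosomal membrane protein often used to pull down lysosomes, was at 45.3 to 60.1 CPM with vehicle and 16.1 to 38.6 with GW2580, again with no overlap (-0.91, SE 0.31, p = 0.0108, adjusted p = 0.280, edgeR; two-sided exact permutation p = 0.00794, n = 5 each), and it too passed in all 22 alternatives. Lamtor5, of the Ragulator complex that anchors mTORC1 to the lysosome, was at 110, 146, 109, 100 and 42.7 CPM with vehicle and 20.3, 51.1, 36.0, 10.6 and 83.7 with GW2580 (-1.33, SE 0.50, p = 0.0190, edgeR; two-sided exact permutation p = 0.0238, n = 5 each), 3 of them below every vehicle library, and passed an unadjusted p of 0.05 in all alternatives but the fit without GW2580 1.

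The test of sex by treatment found 0 members with an unadjusted p under 0.05 for the interaction (smallest adjusted p = 1.00, edgeR), with 2 male and 3 female mice per group. The share of all genes past this p was not counted, so the 0 cannot be read as particular to the members.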

How the data were processed

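Per the labels and the study's methods, RNA of CD11b-selected microglia was amplified with SMART-Seq v4 and sequenced in pairs, and the authors aligned the fragments with STAR to GRCm38 and counted uniquely aligned fragments on the exons of RefSeq genes, without regard to strand, with featureCounts (1.6.3 per the file headers). The authors deposited these counts without normalization, 1 table per library, with exon lengths and summary classes (fragments unassigned, ambiguous or aligned to more than 1 place), which entered no library size or test. The authors' own comparisons were not used.

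Samples were grouped by title. Of 46152 genes, 46029 were matched to the RefSeq table, and 28419 with more than 1 CPM in at least 3 libraries were tested over the whole table with edgeR 4.0.16 (R 4.3.3), TMM scaling and the quasi-likelihood F test of a model holding treatment alone. The SE is the log2 fold change divided by the square root of F. Exact permutation tests of single genes were two-sided over 252 splits of log2 CPM (prior count 2). RPKM divided TMM-scaled CPM by exon length. The depth, 12550418 to 26079343 assigned fragments, leaves a large counting error near 1 CPM, and PCR copies were not told apart by molecular identifiers. Nothing in the labels says more of the mice than 1 library each, so p-values measure the spread between these libraries.

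The members and lists were chosen with earlier results of these data known. All members could be named, with values per library for those that passed a test, the 2 of highest mean RPKM among hydrolases, membrane proteins and pump genes, Tfeb and Tfe3, and up to 3 genes of smallest p in each other list. Values per library of Arsb, Arsa, Ids, Smpd1, Gaa, Igf2r, Atp6v1a, Atp6v1e1, Grn, Psap and M6pr were added after they were seen. Alternatives were DESeq2 1.42.0, limma-voom (limma 3.58.1), other filters and scalings, terms for sex and replicate number, the share of fragments on no exon, gene length (loess, span 0.5) and libraries left out. The fits without vehicle 5 and GW2580 3, and with microglial markers as a term, were chosen after seeing the data. The fit was tested on simulated counts. Motifs were searched in Python 3.11.15.

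Nothing in the labels says that the replicate numbers pair the mice. Deviations of same-numbered libraries from their group means correlated between -0.57 and 0.39. With so few libraries these correlations cannot decide whether the mice were paired.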

Additional observations from a re-analysis of the deposited data

Results flagged for a closer look

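Levels were compared on the log2 scale, and the values printed here are CPM. In the vehicle group, 25 log2 levels lay further from the nearest of the other 4 libraries than 0.71 of the group's range. That is Dixon's 95% limit for 5 values, and all 25 were in vehicle 5. Chance alone gives such a value in about 1 in 20 independent groups of normally distributed values. The 92 groups of 5 examined share the same libraries. By this measure vehicle 5 stood apart as the highest vehicle library for 18 members. Among hydrolases these were Gaa at 1217 CPM, Tpp1 at 611, Smpd1 at 542, Ids at 157, Glb1 at 143, Idua at 99.8, Manba at 91.5 and Arsa at 61.4 CPM. Among pump genes they were Atp6ap1 at 699 CPM, Atp6v1a and Atp6ap2, both at 451, Atp6v1b2 at 265, Atp6v1h at 164 and Atp6v0d1 at 137 CPM. Lamp2 was at 504 CPM, Mcoln1 at 125, Tfeb at 109 and Igf2r at 62.8 CPM. It stood apart as the lowest vehicle library for 7 members: Lgmn at 1409 CPM, Cd68 at 415, Hexa at 399.9, Ppt1 at 220, Asah1 at 199, Gusb at 136 and Scarb2 at 61.4 CPM. In the GW2580 group 0 levels stood apart by this measure, and 0 members had an unadjusted p under 0.05 for the interaction of sex and treatment (edgeR). The shares of all genes past Dixon's limit and past this interaction p were not counted. Vehicle 5 was more than 2-fold above every other vehicle library for 15.3% of all genes and more than 2-fold below for 21.8%. For the members these shares were 26.1% and 4.35%.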

How the results depend on the processing

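Of 1009 refits of the 46 members under 22 alternatives, 964 kept their direction or their side of an unadjusted p of 0.05, 34 passed it anew, 5 no longer did and 6 turned with a p under 0.05. Those 6 were Gaa (1.38 without vehicle 5, 1.37 without vehicle 2 and 5, 0.93 without vehicle 5 and GW2580 3), Ids (0.98 without vehicle 5, 1.20 without vehicle 2 and 5) and Smpd1 (0.87 without vehicle 5). Atp6v0e2 turned to 1.08 without vehicle 2 and 5. Leaving out any 1 library gave -1.29 to 1.38 for Gaa, -0.86 to 0.98 for Ids and -1.07 to 0.87 for Smpd1. The sign of a member's estimate changed in 100 refits, over 27 members.

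Members called higher numbered 1 with DESeq2, with no filter, with sex, with the length trend removed and without vehicle 5 and GW2580 3, 2 with library size alone, 3 with the share on no exon in the model and 4 without vehicle 2 and 5. Of all genes, 4.10%, 3.82%, 4.04%, 4.60%, 4.60%, 7.47%, 3.23% and 5.09% were called higher in these fits, in this order. Members higher at an unadjusted p under 0.05 numbered 2 with DESeq2, sex or the length trend removed, 4 without vehicle 2 and 5 or vehicle 5 and GW2580 3, 8 with library size alone or the share on no exon, and 0 with the microglial markers, where 6.85%, 6.07%, 7.27%, 8.99%, 11.2%, 12.4%, 7.58% and 6.17% of all genes were. Members lower at this p numbered 1 with library size alone, limma-voom or without vehicle 5 and GW2580 3, and 2 with the microglial markers, 1 of them called, where 4.19%, 7.31%, 7.46% and 6.11% of all genes were lower. With library size alone the median of all genes was 0.23, and 2123 genes were called higher and 875 lower. Genes called lower were 3120 with no filter, 813 with the share on no exon, 1100 with the microglial markers and 938 without vehicle 2 and 5.

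With replicate number as a block, 0 members were higher at an unadjusted p under 0.05, where 4.98% of all genes were. The block left 1055 genes called higher and 1499 lower. Nothing in the labels says that the numbers pair the mice.

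Leaving out 1 library gave 0 to 5 members called higher, 0 to 8 higher at an unadjusted p under 0.05 and 0 lower by either rule. Over all genes it gave 597 to 1739 called higher and 1087 to 3637 lower. The medians ranged from -0.13 to 0.34 for all members, -0.07 to 0.57 for hydrolases, -0.13 to 0.37 for membrane proteins and -0.53 to 0.18 for the pump, the low ends without GW2580 3. The most members passed without vehicle 5 (5 called, 8 at the unadjusted p, against 6.18% and 13.0% of all genes). Tfe3 was called higher without vehicle 3, GW2580 1 or GW2580 4, and Tfe3 and Arsb without GW2580 2 or GW2580 5. Counts over all genes were lowest without GW2580 1 in both directions, and highest without vehicle 5 (1739 higher) and without GW2580 5 (3637 lower). Ordered by CPM in place of RPKM, 9 of the 10 highest members stayed among the 10 highest. The causes of these shifts were not tested. At the depth of the smallest library, members near 1 CPM rest on few counts.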
